A study of Mus musculus with 8 samples.

Results

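Collagens are the trimeric rod proteins of the extracellular matrix, and the collagen chains described here are the mRNAs of their single subunits in the adult mouse retina. All rows of the gene table named Col, a number, a and a number were taken, with the exception of Col19a1. This gave 40 of the 18058 rows, of which 39 were among the 17636 genes whose mean over the 8 libraries reached 10 normalized counts, the minimum set for a test. The chain left out of the tests by this minimum was Col6a4, with 3.38 to 12.4 normalized counts. A normalized count is an estimated read count as scaled by DESeq2 to make the libraries comparable.

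Total RNA was sequenced from retinae of 4 adult WT mice of the inbred strain 129S2/SvPasCrl and 4 adult quadruple KO mice (KO for short), with libraries named A to D within each genotype. The quadruple KO mice carry knockout constructs of Bcan, Ncan, Tnc and Tnr, which encode brevican, neurocan, tenascin-C and tenascin-R, combined by cross-breeding of single knockout lines in the whole animal. Both genotypes were untreated, the study used adult mice of both sexes without giving the sex or the exact age for a library, and retinae were pooled before freezing without a statement of how many went into each library. In bulk tissue, fewer cells of a type and less RNA per cell cannot be told apart, and p-values measure the spread between these libraries. An estimated 23.8 M to 52.6 M reads lay behind each library, with the lowest depth in WT B (23.8 M) and WT C (27.3 M), so that low counts were least precise there. Ncan, Bcan and Tnr were lower in the quadruple KO libraries and Tnc did not differ beyond the spread, at 1265 ± 330 in WT and 1175 ± 104 in KO (normalized counts, mean ± SD over 4 libraries). By limma its log2 fold change was -0.07, with a standard error (SE) of 0.18. Against WT A and WT D alone it was 0.25 (limma unadjusted p = 0.0482, adjusted p = 0.427). The paper reports a lost stretch of the Tnc allele, and no Tnc protein on western blots of postnatal quadruple KO retina.

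Each collagen chain winds around 2 others into a triple helix, which is possible because glycine recurs at regular places along the chain, at each position that faces the axis. The chains are grouped by the shape they build. Fibrillar collagens form the striated fibrils of sclera and vitreous, network collagens form the sheets of basement membranes such as the inner limiting membrane and the vessel wall, and FACIT collagens sit on the surface of fibrils. Beaded filament collagens link cells to the matrix around them, transmembrane collagens are anchored in the cell membrane, and multiplexins decorate basement membranes. In the eye, types II, V/XI and IX together make the fibrils of the vitreous. Chains of one type usually have to meet as partners before they are secreted, which is why the balance between them is of interest.

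The repeat can be read in the genes, and short exons of 54 bases are shown because their glycine codons are what the chains of this family share. In the list that follows, the first 54-base coding exon that starts in frame and holds a codon beginning with GG in 1 of every 3 places is given for 5 chains whose levels the comparisons turn on, read from GRCm39 in the direction of transcription, with these codons in capitals and coding exons counted from the start codon of the canonical transcript.
Col9a1 (coding exon 11, chr1:24241095-24241148, plus strand): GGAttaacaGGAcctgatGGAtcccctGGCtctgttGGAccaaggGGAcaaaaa
Col9a2 (coding exon 5, chr4:120900893-120900946, plus strand): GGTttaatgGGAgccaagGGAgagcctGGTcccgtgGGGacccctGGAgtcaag
Col9a3 (coding exon 5, chr2:180243375-180243428, plus strand): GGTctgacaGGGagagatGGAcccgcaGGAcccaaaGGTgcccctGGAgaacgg
Col11a2 (coding exon 13, chr17:34270454-34270507, plus strand): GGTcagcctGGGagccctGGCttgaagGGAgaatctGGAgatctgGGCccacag
Col5a2 (coding exon 6, chr1:45474052-45474105, minus strand): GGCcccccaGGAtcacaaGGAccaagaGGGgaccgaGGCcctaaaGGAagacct

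Each of these exons holds 6 such codons, and GC makes up 51.9% of the exon of Col9a1 and 63.0% to 64.8% of the other 4. The classes differed in how much of the coding sequence has this form. In the 11 fibrillar chains 305 of 647 coding exons were 54 bases long (47.1%), compared with 94 of 382 in the 8 FACIT chains (24.6%) and 12 of 300 in the 8 network chains (4%). The longest run of codons starting with GG, counted at 1 in every 3 places, was 337 to 344 codons in 9 of the fibrillar chains, 216 in Col24a1 and 217 in Col27a1, whereas each of the 3 type IX chains had a run of 113. The GC content over all exons of a gene had a median of 55.0% in the 39 chains tested and of 48.4% in all genes tested.

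To compare the amounts of different chains, normalized counts were divided by the exonic length of the gene, merged over all annotated exons. This length exceeds the coding length to unlike degrees, as in Col6a2 (10998 and 3102 bases) and Col6a1 (5847 and 3075 bases). Levels per kb and their ratios between chains therefore depend on the annotation. The transmembrane chain Col23a1 had the highest level, with a mean of 392 normalized counts per kb over the 8 libraries. It was followed by the beaded filament chain Col6a1 (193 per kb), the FACIT chain Col9a1 (176 per kb), the network chain Col4a2 (172 per kb) and the multiplexin Col18a1 (130 per kb). Col2a1, the chain of type II collagen, was the highest of the fibrillar class, with 123 per kb, and Col1a1 and Col3a1, which dominate in sclera and skin, had 12.0 and 3.28 per kb. Summed over a class, the 8 network chains had 610 normalized counts per kb, the 8 FACIT chains 497, the 4 transmembrane chains 434, the 11 fibrillar chains 327, the 5 beaded filament chains 215 and the 2 multiplexins 137. The remaining pair, Col7a1 and Col26a1, had 44.4.

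**Figure D1:**
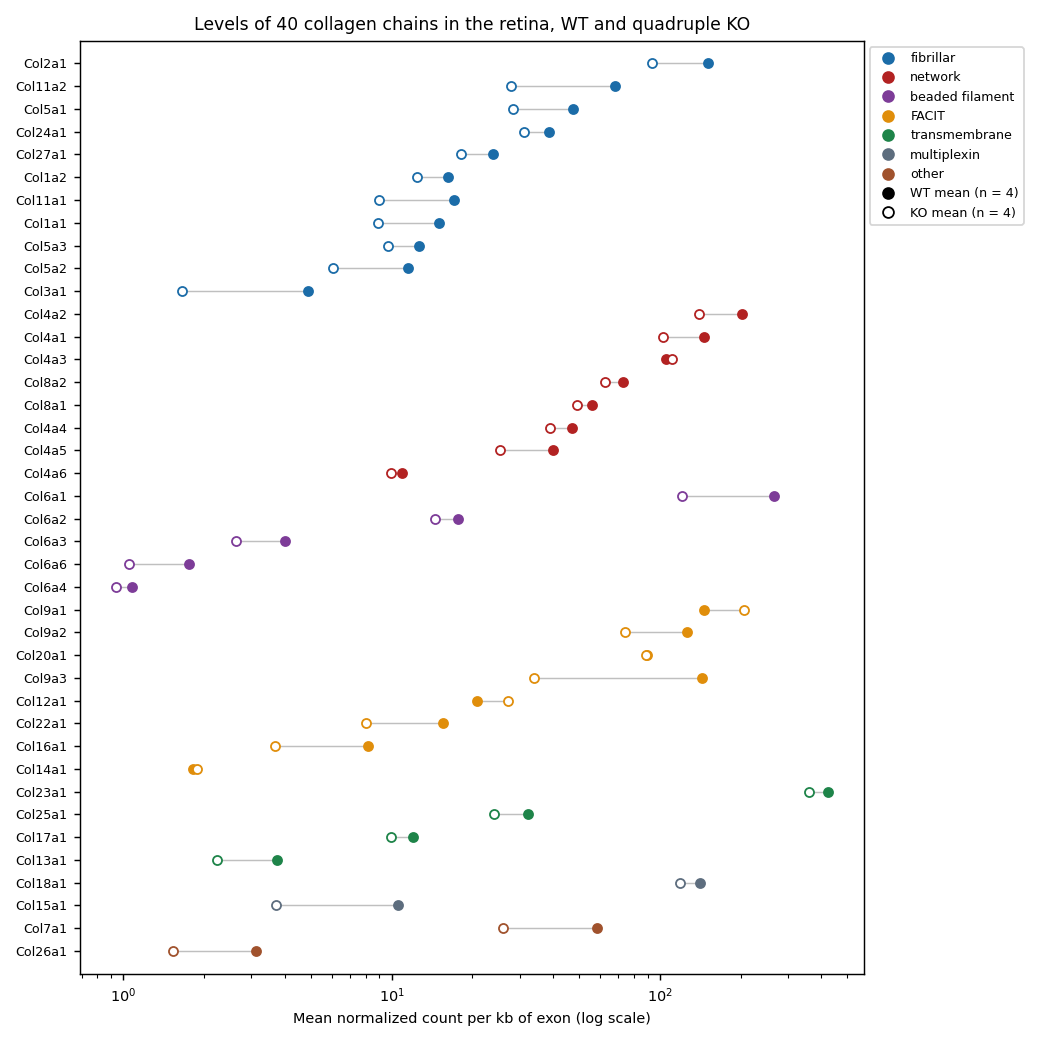
Mean normalized count per kb of exon (log scale) for the 40 collagen chains, with filled circles for the WT mean and open circles for the quadruple KO mean (n = 4 each) and colours for the class. Col23a1 is the highest chain at 392 per kb over all libraries, and the open circle lies to the right of the filled circle for Col9a1 and Col12a1 among the chains with an unadjusted p under 0.05.

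To find which collagen chains differed between the genotypes, log2(normalized count + 1) was compared with limma for all genes tested. None of the 39 chains was called at an adjusted p under 0.05, against 77 of all genes tested (0.437%), and the lowest adjusted p of a chain was 0.243 (Col5a2). At an unadjusted p under 0.05 there were 15 chains, where 16.6% of all genes tested passed. Of these, 13 were lower in the quadruple KO (7.28% of all genes tested) and 2 were higher (9.29% of all genes tested). The mean log2 level was lower in the quadruple KO for 35 of the 39 chains, compared with 50% of all genes tested. The median log2 fold change was -0.47 over the chains and 0.00 over all genes tested. All 4 KO libraries were lower than all 4 WT libraries for 5 chains (3.58% of all genes tested), and all 4 were higher for 0 chains (6.16% of all genes tested). The paper used another test, DESeq2 on estimated counts. By that test it reports Col9a3, Col11a2, Col15a1 and a chain printed as Col5a as lower, at an adjusted p under 0.05.

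The WT libraries split for most of these chains. WT B and WT C stood apart from the other libraries, with 19.3% and 14.8% of normalized counts in the 7SL RNA of the signal recognition particle, compared with 6.82% to 8.69% in the other 6 libraries, and with 0.402% and 0.341% in the 13 mitochondrial mRNAs, compared with 1.28% to 1.64%. Both were above WT A and WT D for 29 of the 39 chains, compared with 35.1% of all genes tested, and both were below for 1 chain (Col14a1), compared with 35.8%. On the log2 scale WT B and WT C differed from WT A and WT D by a median of 0.63 over the chains and of -0.01 over all genes tested. The share of the 40 chains in all normalized counts was 0.0586% (WT B) and 0.0524% (WT C), but 0.0366% (WT A), 0.0394% (WT D) and 0.0351% to 0.0397% (KO A to KO D). Values against WT A and WT D alone are therefore given beside those of all WT libraries.

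Against WT A and WT D alone, 29 chains had a lower mean log2 level in the quadruple KO (46.5% of all genes tested), and the median log2 fold change of the chains was -0.13, compared with 0.01 over all genes tested. This comparison rests on 2 WT libraries. Of the chains 1 was called (Col9a1, higher), where 0.527% of all genes tested were called. At an unadjusted p under 0.05, 5 chains were lower (5.79% of all genes tested) and 2 were higher (5.83%). The 5 lower chains were Col5a2, Col11a2, Col4a5, Col9a3 and Col16a1, and in each of them every quadruple KO library lay below WT A and WT D (9.7% of all genes tested). In Col9a1 and Col12a1 every quadruple KO library lay above both (12.5% of all genes tested).

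**Figure D2:**
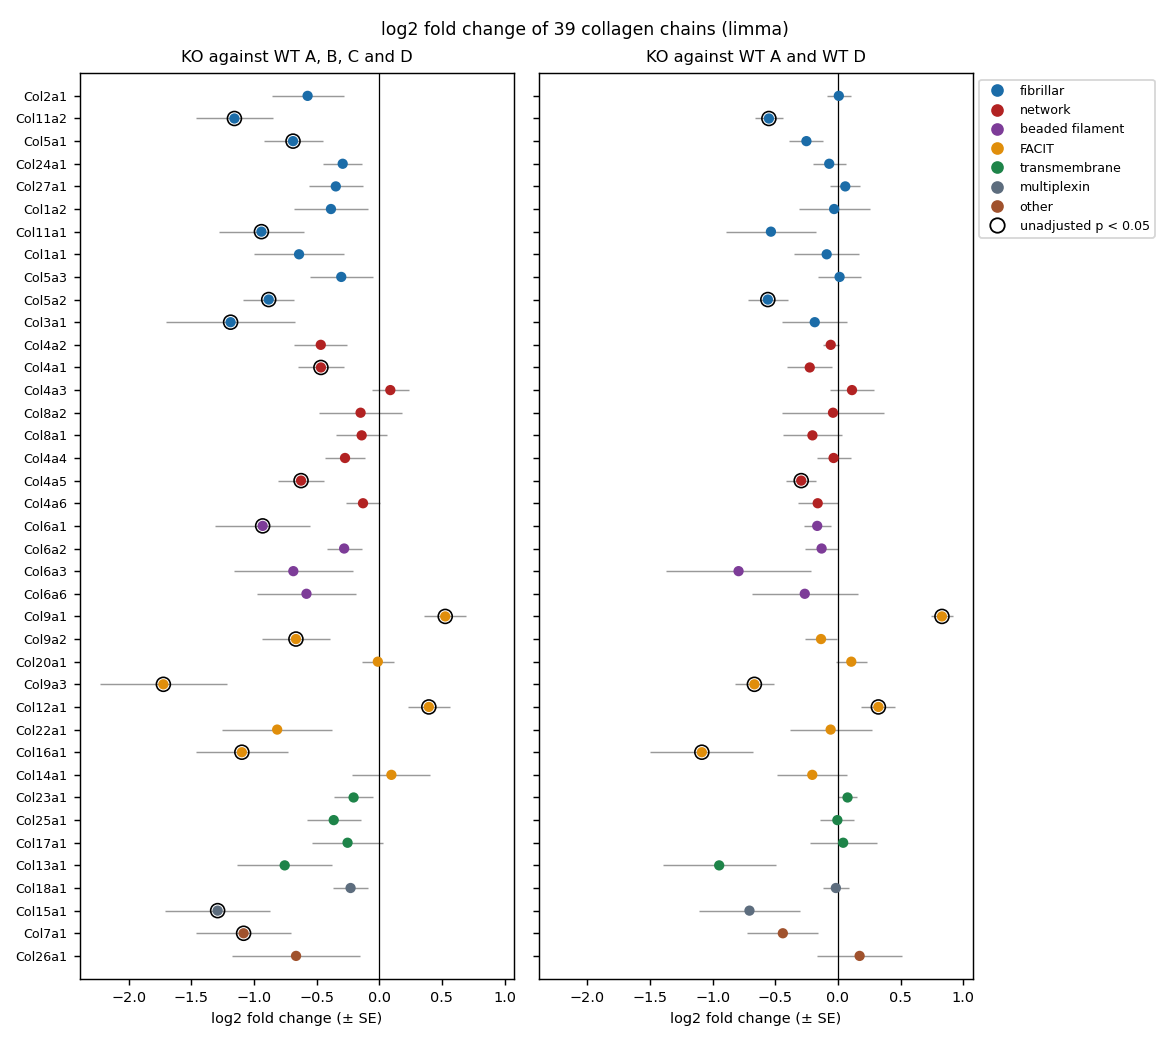
log2 fold change of the 39 chains tested in the quadruple KO, against all 4 WT libraries (left) and against WT A and WT D only (right), as points with the standard error from limma, coloured by class, with a ring for an unadjusted p under 0.05. Rings surround 15 chains on the left and 7 on the right, and the median moves from -0.47 to -0.13.

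In the fibrillar class, WT B and WT C were both above WT A and WT D in 11 of 11 chains, with a median excess of 0.81 on the log2 scale. The same held for 4 of 8 network, 2 of 4 beaded filament, 5 of 8 FACIT and 3 of 4 transmembrane chains, for both multiplexins, and for Col7a1 and Col26a1. All 11 fibrillar chains had a lower mean log2 level in the quadruple KO, 5 with an unadjusted p under 0.05, and the median log2 fold change was -0.64. Without WT B and WT C it was -0.09, with 8 of 11 lower and 2 with an unadjusted p under 0.05. Summed over the class, the level was 588 and 496 normalized counts per kb in WT B and WT C, 286 and 260 in WT A and WT D, and 240 to 259 in KO libraries.

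Col2a1, which forms the body of the vitreous fibril, had 969 normalized counts in WT A, 2147 in WT B, 1768 in WT C and 785 in WT D. The quadruple KO libraries had 917, 800, 932 and 863 (A to D), within the range of WT A and WT D. The log2 fold change was -0.57 (SE 0.29, limma unadjusted p = 0.0761, adjusted p = 0.312), and it was 0.01 (SE 0.10) against WT A and WT D. The quadruple KO mean was 100% of the mean of WT A and WT D.

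Col11a2 and Col11a1 are minor chains that set the diameter of type II fibrils from within. Col11a2 (ENSMUSG00000024330.18, chr17:34258108-34285664) had 323 normalized counts in WT A, 833 in WT B, 592 in WT C and 285 in WT D, and 220, 221, 191 and 196 in KO A to KO D. The groups did not overlap (two-sided exact permutation of means, p = 0.0286, the minimum possible for 4 against 4 libraries). Its log2 fold change was -1.16 (SE 0.31, limma unadjusted p = 0.00422, adjusted p = 0.301) and -0.55 (SE 0.11, unadjusted p = 0.000825, adjusted p = 0.110) against WT A and WT D. The quadruple KO mean was 68.1% of the mean of WT A and WT D, so this chain was below the WT libraries also without WT B and WT C.

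Col11a1 had 207, 266, 286 and 119 normalized counts in WT A to WT D and 103, 125, 62.9 and 167 in KO A to KO D. The groups overlapped, since KO B and KO D lay above WT D (exact permutation test, p = 0.0857). The log2 fold change was -0.94 (SE 0.34, limma unadjusted p = 0.0219, adjusted p = 0.301). Without WT B and WT C it was -0.54 (SE 0.36, unadjusted p = 0.172).

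Col5a1 and Col5a2 are the chains of type V collagen, which starts the assembly of type I fibrils and can join type XI chains in one trimer. Col5a2 (ENSMUSG00000026042.17, chr1:45412554-45542442) had 101, 171, 143 and 97.8 normalized counts in WT A to WT D and 70.5, 75.8, 67.8 and 56.4 in KO A to KO D. The groups did not overlap (exact permutation test, p = 0.0286), and the log2 fold change was -0.88 (SE 0.20, limma unadjusted p = 0.00175, adjusted p = 0.243). Against WT A and WT D it was -0.56 (SE 0.16, unadjusted p = 0.00767, adjusted p = 0.278). For Col5a1 the values were 267, 578, 496 and 319 in WT A to WT D and 281, 259, 209 and 237 in KO A to KO D. Here KO A lay above WT A, and the log2 fold change was -0.69 (SE 0.24, limma unadjusted p = 0.0164, adjusted p = 0.301) with an exact permutation p = 0.0571. With WT A and WT D alone it was -0.25 (SE 0.14, unadjusted p = 0.0971), and the KO mean was 84.1% of theirs.

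Col1a1 and Col3a1, the chains of the coarse fibrils of connective tissue, had low levels. Col1a1 had 54.5, 179, 94.9 and 66.6 normalized counts in WT A to WT D and 60.2, 53.6, 39.8 and 79.3 in KO A to KO D, with a log2 fold change of -0.64 (SE 0.36, limma unadjusted p = 0.108, adjusted p = 0.335), and of -0.09 (SE 0.26) against WT A and WT D. Col3a1 had 18.3 in WT A, 66.3 in WT B, 96.7 in WT C and 20.2 in WT D, and 13.8 to 20.8 in KO. Its log2 fold change of -1.19 (SE 0.51, limma unadjusted p = 0.0451, adjusted p = 0.301) became -0.19 (SE 0.26) against WT A and WT D. For both genes the quadruple KO libraries overlapped WT A and WT D. The other 4 fibrillar chains, Col24a1, Col27a1, Col1a2 and Col5a3, had log2 fold changes from -0.39 to -0.29, and from -0.07 to 0.06 against WT A and WT D.

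**Figure D3:**
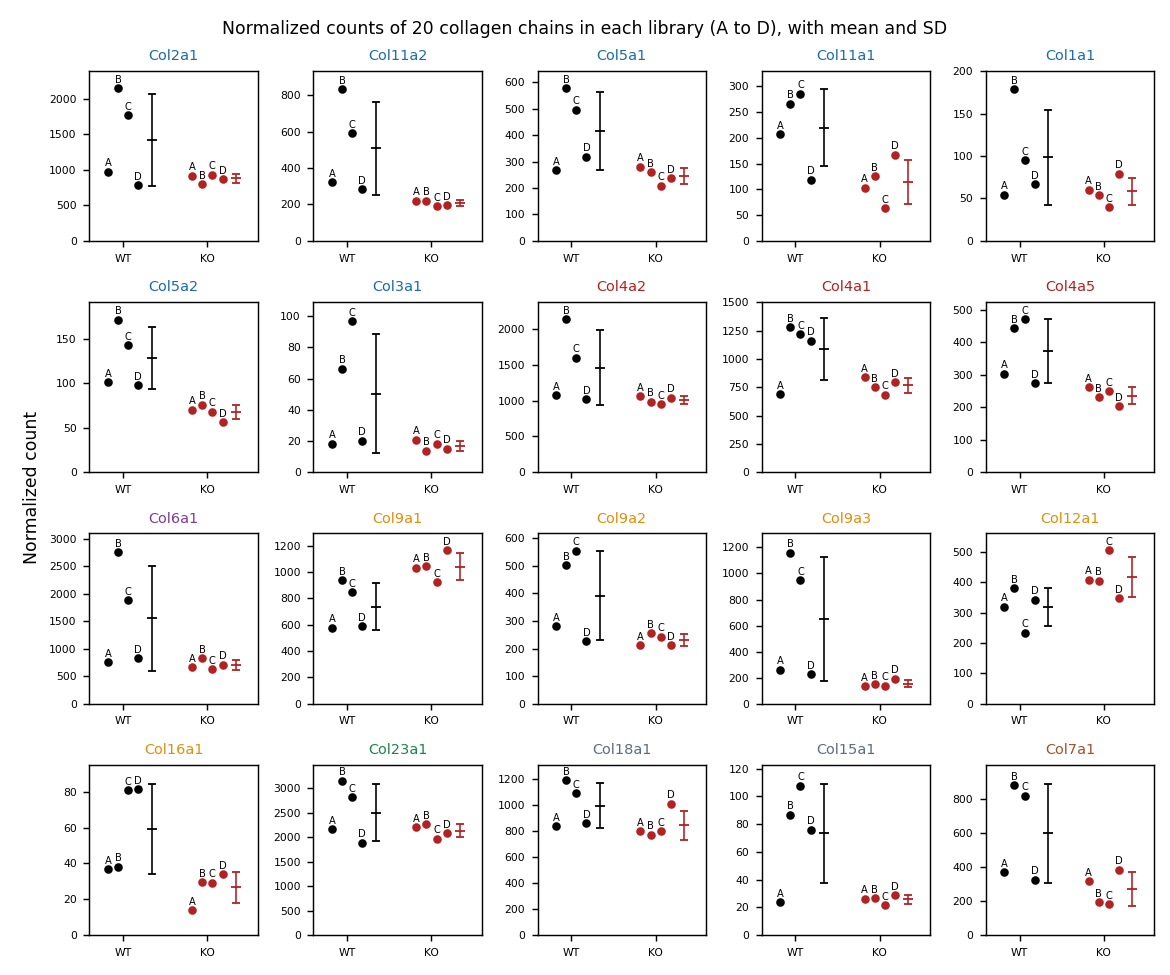
Normalized count in each library for 20 collagen chains, with letters A to D for the library, WT in black, quadruple KO in red, and a bar for the mean and SD (n = 4), and each axis starting at 0. In most panels WT B and WT C lie above WT A and WT D, as for Col6a1 with 2758 and 1885 against 754 and 824, and in the panel of Col9a1 the quadruple KO libraries reach 1168.

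The 8 network chains are the 6 chains of type IV collagen and the 2 of type VIII, which lies in the membranes under endothelium and pigment epithelium. Their median log2 fold change was -0.21, with 7 lower and 1 higher, and 2 of the lower had an unadjusted p under 0.05. In the 4 without the split (Col4a3, Col4a6, Col8a1 and Col8a2) the mean of WT B and WT C was 0.871 to 1.01 times that of WT A and WT D.

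Col4a1 and Col4a2 make the type IV trimer found in all basement membranes, and their genes start beside each other on opposite strands, with annotated spans that overlap by 356 bases. Col4a1 had 688 normalized counts in WT A, 1281 in WT B, 1217 in WT C and 1162 in WT D, and 838, 751, 685 and 793 in KO A to KO D. Here WT A, not WT D, lay with the quadruple KO libraries. The log2 fold change was -0.47 (SE 0.19, limma unadjusted p = 0.0324, adjusted p = 0.301). This value depended on the WT libraries, since it was -0.23 (SE 0.18, unadjusted p = 0.238) against WT A and WT D, -0.09 (limma adjusted p = 0.790) with array weights, by which limma gives libraries that vary more a lower weight, and -0.67 (limma adjusted p = 0.0215) without WT A. Col4a2 had 1075, 2140, 1598 and 1022 normalized counts in WT A to WT D and 1058, 985, 947 and 1040 in KO A to KO D. Its log2 fold change was -0.47 (SE 0.21, limma unadjusted p = 0.0553, adjusted p = 0.302), and against WT A and WT D it was -0.06 (SE 0.07).

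The trimers with Col4a3, Col4a4 and Col4a5 belong to specialised basement membranes. Col4a5 (ENSMUSG00000031274.17, chrX:140258354-140472231) had 304, 443, 470 and 273 normalized counts in WT A to WT D and 261, 231, 249 and 203 in KO A to KO D, without overlap (exact permutation test, p = 0.0286). Its log2 fold change was -0.62 (SE 0.19, limma unadjusted p = 0.00813, adjusted p = 0.301) and -0.29 (SE 0.12, unadjusted p = 0.0394, adjusted p = 0.402) against WT A and WT D. Col4a3, whose product pairs with that of Col4a5, was the 1 network chain with a higher mean log2 level in the quadruple KO, with 806 to 1282 normalized counts in WT, 974 to 1299 in KO and a log2 fold change of 0.09 (SE 0.15), or 0.11 without WT B and WT C. The other 4 network chains, Col4a4, Col4a6, Col8a1 and Col8a2, had log2 fold changes from -0.27 to -0.13 with overlapping groups, and from -0.20 to -0.04 against WT A and WT D.

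Type VI collagen forms beaded filaments next to basement membranes from an alpha 1, an alpha 2 and a larger alpha 3 chain. Col6a1 had 754 normalized counts in WT A, 2758 in WT B, 1885 in WT C and 824 in WT D, compared with 665, 830, 626 and 706 in KO A to KO D. WT B and WT C were thus 2.94 times WT A and WT D on average, whereas the quadruple KO mean was 89.6% of that of WT A and WT D. The log2 fold change was -0.93 (SE 0.38, limma unadjusted p = 0.0356, adjusted p = 0.301), with -0.17 (SE 0.11) against WT A and WT D. Its partner Col6a2 did not show a split of that size, with 173 to 231 normalized counts in WT and 146 to 190 in KO and a log2 fold change of -0.28, or -0.13 against WT A and WT D. Col6a3 and Col6a6 were at 28.5 to 80.6 and 7.12 to 26.1 normalized counts in WT, with log2 fold changes of -0.69 and -0.58, and of -0.79 and -0.27 against WT A and WT D.

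The 2 of 39 chains that were higher in the quadruple KO with an unadjusted p under 0.05 were both in the FACIT class. Over all genes tested, 9.29% were higher and 7.28% were lower at this threshold. Of the 8 FACIT chains, 3 were lower with an unadjusted p under 0.05 (Col9a2, Col9a3 and Col16a1) and 2 were higher (Col9a1 and Col12a1). The class had a median log2 fold change of -0.34, with single values from -1.72 to 0.53. Against WT A and WT D, the median was -0.10, and 2 chains were lower and 2 higher with an unadjusted p under 0.05.

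Type IX collagen is a trimer of the products of Col9a1, Col9a2 and Col9a3 on the surface of type II fibrils, and the eye is known to use a shorter form of the alpha 1 chain, which gene-level values do not separate. Col9a1 (ENSMUSG00000026147.17, chr1:24216691-24291765) had 578 normalized counts in WT A, 937 in WT B, 846 in WT C and 590 in WT D, and 1035, 1044, 922 and 1168 in KO A to KO D. KO C lay just below WT B, and all other quadruple KO libraries lay above all WT libraries (exact permutation test, p = 0.0571). The log2 fold change was 0.53 (SE 0.17, limma unadjusted p = 0.0110, adjusted p = 0.301). Against WT A and WT D it was 0.83 (SE 0.09, limma adjusted p = 0.00264), with a KO mean of 178% of theirs and higher values in 4 of 4 KO libraries. That comparison leaves out WT B and WT C, the WT libraries nearest to the KO values. The gene lies 5.01 kb from Col19a1, which runs on the other strand.

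Col9a3 (ENSMUSG00000027570.16, chr2:180239583-180264063) had 260, 1159, 950 and 225 normalized counts in WT A to WT D and 136, 149, 138 and 191 in KO A to KO D. WT B and WT C were 4.35 times WT A and WT D, which was the widest split of the 39 chains tested, and the groups did not overlap (exact permutation test, p = 0.0286). The log2 fold change was -1.72 (SE 0.51, limma unadjusted p = 0.00767, adjusted p = 0.301) and -0.67 (SE 0.16, unadjusted p = 0.00225, adjusted p = 0.183) against WT A and WT D. Col9a2 had 282, 502, 555 and 226 in WT A to WT D and 212, 255, 243 and 212 in KO A to KO D. Its log2 fold change was -0.67 (SE 0.27, limma unadjusted p = 0.0353, adjusted p = 0.301), and -0.14 (SE 0.13) against WT A and WT D, where the groups overlapped.

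Since the 3 mRNAs serve one trimer, their balance was described in each library by the ratio of normalized counts per kb, a choice made after the values had been seen. Of 11 such ratios between partner chains, the groups did not overlap in 3, namely the 3 of type IX. These 3 ratios share their genes and are not independent, and the share without overlap among other pairs of genes was not computed. The ratio of Col9a1 to Col9a3 was 1.99, 0.721, 0.795 and 2.33 in WT A to WT D and 6.80, 6.27, 5.96 and 5.46 in KO A to KO D. That of Col9a1 to Col9a2 was 0.933 to 1.59 in WT and 2.32 to 3.36 in KO. That of Col9a2 to Col9a3 was 0.633 to 1.59 in WT and 1.62 to 2.57 in KO, with the closest libraries WT A and KO D. In the other 8 ratios the groups overlapped, as for Col4a1 to Col4a2 with 0.576 to 1.09 in WT and 0.695 to 0.762 in KO. The ratio of Col6a1 to Col6a2 was 26.2 in WT B and 15.4 in WT C, and 7.92 to 8.97 in the other 6 libraries.

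**Figure D4:**
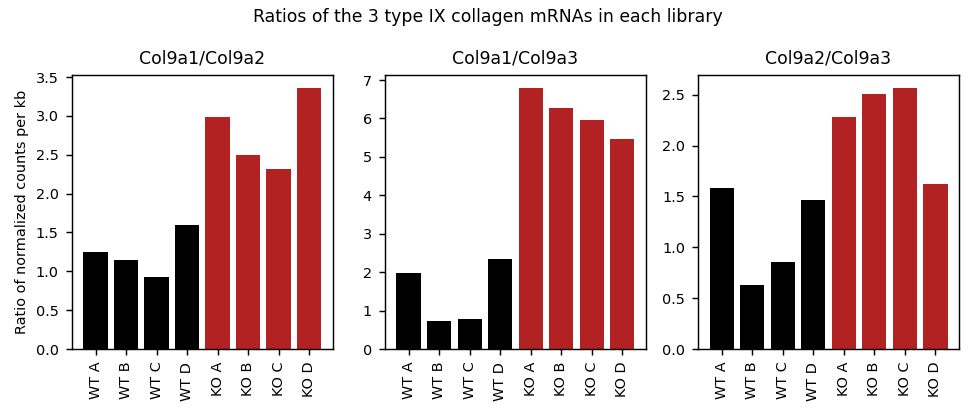
Ratio of normalized counts per kb of exon between the 3 type IX chains, as 1 bar for each library, with WT in black and quadruple KO in red and axes starting at 0. Every quadruple KO bar is higher than every WT bar in the 3 panels, with 5.46 to 6.80 against 0.721 to 2.33 for Col9a1 to Col9a3.

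Col12a1 and Col16a1 encode FACIT collagens of interfibrillar matrix and of cell adhesion sites. Col12a1 had 319, 381, 234 and 343 normalized counts in WT A to WT D and 409, 405, 506 and 349 in KO A to KO D. Only KO D lay below a WT library (WT B), and the log2 fold change was 0.40 (SE 0.17, limma unadjusted p = 0.0419, adjusted p = 0.301, exact permutation p = 0.0571), with 0.32 (SE 0.13) against WT A and WT D. Col16a1 had 36.7, 38.2, 80.7 and 81.4 in WT A to WT D and 13.8, 29.4, 29.2 and 33.9 in KO A to KO D, so that its WT libraries split in another way, with WT C and WT D the higher. The groups did not overlap (exact permutation test, p = 0.0286), and the log2 fold change was -1.10 (SE 0.37, limma unadjusted p = 0.0152, adjusted p = 0.301), with -1.09 (SE 0.41) against WT A and WT D. The other 3 FACIT chains, Col20a1, Col22a1 and Col14a1, had log2 fold changes of -0.01, -0.82 and 0.10, which became 0.11, -0.06 and -0.21 against WT A and WT D.

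None of the 4 transmembrane chains had an unadjusted p under 0.05. Col23a1, a membrane collagen that is shed from the cell surface, had 2159, 3160, 2817 and 1888 normalized counts in WT A to WT D and 2209, 2265, 1974 and 2079 in KO A to KO D. Its log2 fold change was -0.21 (SE 0.15, limma adjusted p = 0.430) and 0.08 (SE 0.07) against WT A and WT D. Col25a1, a neuronal collagen, and Col17a1, of hemidesmosomes, had log2 fold changes of -0.36 and -0.25, and Col13a1 had -0.76 at 5.57 to 26.1 normalized counts. These were 0.00, 0.04 and -0.95 against WT A and WT D.

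Both multiplexins carry a C-terminal part that can be released as endostatin or a related fragment. Col18a1 had 837, 1188, 1091 and 859 normalized counts in WT A to WT D and 795, 769, 799 and 1007 in KO A to KO D, with a log2 fold change of -0.23 (SE 0.14, limma adjusted p = 0.355) and of -0.02 (SE 0.11) against WT A and WT D. Col15a1, of vessel basement membranes, had 23.5 in WT A, 86.7 in WT B, 108 in WT C and 76.0 in WT D, and 26.3, 26.5, 21.5 and 28.8 in KO A to KO D. WT A thus lay among the quadruple KO libraries and the other 3 WT libraries far above them (exact permutation test, p = 0.114). The log2 fold change was -1.29 (SE 0.42, limma unadjusted p = 0.0125, adjusted p = 0.301). It was -0.71 (SE 0.40, unadjusted p = 0.112) against WT A and WT D, -0.42 (limma adjusted p = 0.553) with array weights, and -1.76 (limma adjusted p = 0.00593) without WT A.

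Col7a1, the anchoring fibril collagen of skin, had 370, 878, 819 and 325 normalized counts in WT A to WT D and 317, 194, 181 and 384 in KO A to KO D. KO D lay above WT A and WT D, and the log2 fold change was -1.08 (SE 0.38, limma unadjusted p = 0.0176, adjusted p = 0.301, exact permutation p = 0.114) and -0.44 (SE 0.28) against WT A and WT D. Col26a1 had 8.30 to 56.8 normalized counts in WT and 9.79 to 17.6 in KO, with a log2 fold change of -0.66, and of 0.17 against WT A and WT D.

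The split within WT was set beside GC content, since many collagen genes are rich in GC. Over all genes tested with an annotation, the difference of WT B and WT C from WT A and WT D followed GC content, with a median of -0.36 on the log2 scale in the lowest of 5 equal bins of genes (below 43.1% GC) and 0.26 in the highest (above 54.3%). Spearman's correlation across 17554 genes, which share the libraries and are not independent, was 0.409. Among the chains 20 fell into the highest bin, with a median of 0.81, and 17 of these had WT B and WT C both above, compared with 56.1% of all genes in that bin. In the next to lowest bin (43.1% to 46.7% GC) there were 8 chains, with a median of 0.69, where all genes had -0.14. Of these, 6 had WT B and WT C both above (Col5a2, Col3a1, Col1a2, Col11a1, Col4a5 and Col25a1), and Col8a1 (-0.13) and Col12a1 (-0.15) did not. The middle bin held 2 chains, Col4a3 and Col14a1, with a median of -0.28 and 0 with both above, and the lowest bin held none. Across the 39 chains this correlation was 0.142. After each library was corrected for GC content, the count of chains with WT B and WT C both above was 23 (32.9% of all genes tested), the median log2 fold change was -0.43 and 14 chains had an unadjusted p under 0.05.

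**Figure D5:**
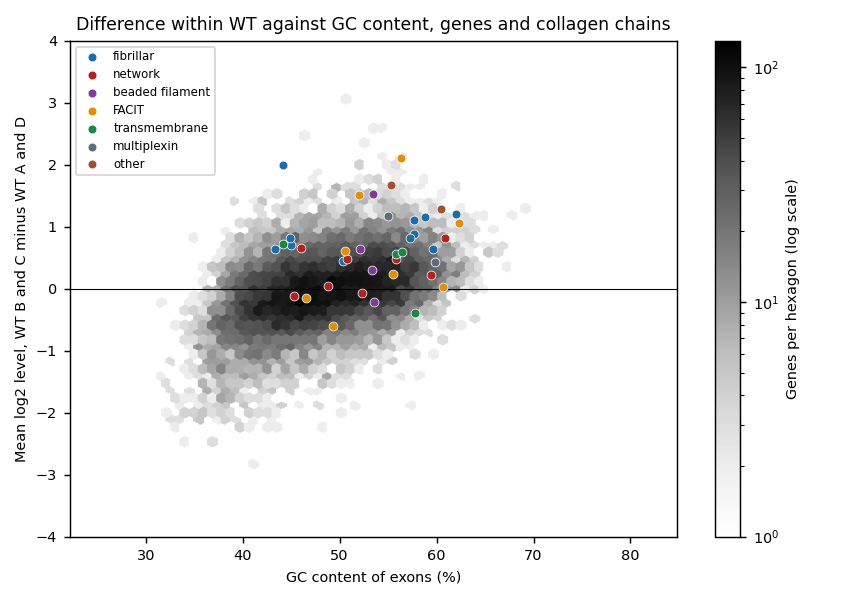
Mean log2(normalized count + 1) of WT B and WT C minus that of WT A and WT D, against the GC content of exons in percent, with all genes tested as grey hexagons (darker for more genes, log scale) and the 39 collagen chains as points coloured by class. Most points lie above 0, with a median of 0.63, and the chains lie between 43.4% and 62.3% GC.

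The machinery that makes and binds collagen was followed with 44 genes in 4 lists, of which 39 were in the table and were tested. None was called by limma, and 7 had an unadjusted p under 0.05, of which 4 were lower in KO and 3 were higher, a share of 17.9% where 16.6% of all genes tested passed, so it was near the background. The median log2 fold change was -0.03, with 23 of the 39 lower. WT B and WT C were both above WT A and WT D in 12 and both below in 8, compared with 29 and 1 of the 39 chains. The gene with the lowest p was named for each list. Colgalt1, which adds galactose to hydroxylysine, had 1370 to 1487 normalized counts in WT and 1496 to 1700 in KO, without overlap, with a log2 fold change of 0.18 (SE 0.07, limma unadjusted p = 0.0275). Ppib, the prolyl isomerase of the endoplasmic reticulum, had 1252 to 1628 in WT and 1619 to 1793 in KO, with a log2 fold change of 0.29 (SE 0.09, unadjusted p = 0.0128). Pcolce2, an enhancer of propeptide cleavage, had 160, 176, 176 and 174 in WT A to WT D and 273, 216, 197 and 223 in KO A to KO D, without overlap, with a log2 fold change of 0.39 (SE 0.12, unadjusted p = 0.00936). Itga1, the alpha subunit of a collagen-binding integrin, had 85.1 to 165 in WT and 68.2 to 104 in KO, with a log2 fold change of -0.56 (SE 0.24, unadjusted p = 0.0420). Against WT A and WT D alone the log2 fold changes were 0.17 (Colgalt1), 0.15 (Ppib), 0.43 (Pcolce2) and -0.90 (Itga1). The limma adjusted p-values were then 0.161 (Itga1) to 0.404 (Ppib). WT B and WT C were both below WT A and WT D in Ppib and Itga1, and both above in Pcolce2.

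Neighbouring tissues that make collagen can be carried over when the retina is dissected, so their markers were summed in each library, with and without the most abundant gene of a list. None of the genes of these lists that were in the table was at 0, and none was called. The 7 sclera and fibroblast markers in the table summed to 4022, 3054, 3114 and 3748 in WT A to WT D and 3337 to 3567 in KO. Without Igf2 the other 6 summed to 569, 588, 541 and 610 in WT A to WT D and 474 to 767 in KO, with KO D the highest. In 4 of these 7 markers WT B and WT C were both below WT A and WT D (35.8% of all genes tested). In 1 they were both above (35.1% of all genes tested). Dcn, a defining gene of fibroblasts, was among the 4. It had 8.87 and 7.45 normalized counts in WT B and WT C and 17.3 and 21.6 in WT A and WT D. Fbln1 was the 1 above, with 118 and 106 compared with 44.3 and 71.7.

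The 8 endothelial markers summed to 10496 and 9283 in WT B and WT C and to 12549 and 11311 in WT A and WT D, but without Kdr to 1398 and 1280 compared with 1224 and 1297. The 6 pericyte markers summed to 1427 and 1350 compared with 1895 and 1983, and without Rgs5 to 877 and 748 compared with 930 and 987. The 8 Mueller glia markers summed to 194147 and 187697 in WT B and WT C and to 135950 to 153643 in the other 6 libraries. Glul alone had 135955 and 132019 there and 81844 to 98453 elsewhere, whereas the other 7 summed to 55190, 58192, 55678 and 54004 in WT A to WT D, with 3 of them both above and 2 both below. For 7 rod markers the sum was 720552, 640852, 749165 and 745580 in WT A to WT D and 776989 to 834022 in KO. Taken singly, 3 of these 7 were higher in KO with a limma unadjusted p under 0.05, compared with 9.29% of all genes tested. The 8 ganglion cell markers had 28470 to 31540 in WT and 23791 to 28423 in KO. Without Nefl the groups overlapped, with 12556 to 14440 in WT and 11045 to 13616 in KO. Taken singly, 4 of the 8 ganglion cell markers were lower in KO with a limma unadjusted p under 0.05, compared with 7.28% of all genes tested. Without Nefl this held for 3 of 7.

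The 3 lens markers in the table were highest in WT B (1411) and KO C (1096), followed by WT C (361), with 29.5 to 210 in the other libraries. In all 3 markers WT B and WT C were both above WT A and WT D, compared with 35.1% of all genes tested. The 7 pigment epithelium markers in the table were highest in WT D (7329, with 2535 to 4251 elsewhere), as was the sum of the 5 melanocyte markers (1116, with 507 to 963 elsewhere). The 3 ciliary epithelium markers in the table were 278 in KO D and 138 to 189 elsewhere, and the 3 cornea markers 45.9 to 117. The part of Glul, Kdr, Igf2 and the pericyte, rod and lens markers in the levels of the chains was not tested.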

How the data were processed

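Total RNA libraries were made with a directional kit from 450 ng of RNA. The authors trimmed reads with Trim Galore 0.6.7, aligned them to GRCm39 with STAR 2.7.9a, estimated gene counts with Salmon 1.5.2 and normalized them with DESeq2 1.32.0, and the deposited table holds these normalized counts for 8 libraries. It also holds the authors' fold changes and p-values, which were not used. The strand setting of the counting is not given in the sources used here, so opposite genes that overlap (Col4a1 and Col4a2, Col4a3 and Col4a4, Col6a6 and Pik3r4, Col18a1 and Slc19a1) may share reads, as may Col20a1 and 9230112E08Rik on one strand. Libraries were grouped by sample title. The worth of 1 read, found from the spacing of low values, gave the depth as an estimate (43.5% to 67.5% of low values lay within 0.1 reads of a whole step), so no count model was run. Positions, exonic length and GC content came from GENCODE on GRCm39 (17969 genes matched).

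Log2(normalized count + 1) was tested with limma 3.58.1 in R 4.3.3 (eBayes with trend) for genes with a mean of at least 10, with Benjamini-Hochberg adjustment over all of them. The log2 scale with a pseudocount understates changes of low genes. Single chains were tested by two-sided exact permutation of means (scipy 1.17.1). Values per library are given for chains with an unadjusted p under 0.05 and the highest chain per kb of each class. They are also given for the collagens named in the paper's gene expression results, without Col19a1. These were Col5a2 (taken for the Col5a printed there), Col9a3, Col11a2, Col15a1, Col6a1, Col1a1 and Col2a1. The members and lists were chosen with earlier results of these data known. Col10a1, Col21a1, Col28a1, Col6a5 and 5 genes of the pathway lists were not analysed here. Alternatives were other normalizations, filters and pseudocounts, array weights, a robust prior, a GC correction, a block on the letter, WT A and WT D only, and each library left out. The steps were tested on simulated data with a spread taken from the KO libraries alone. That simulation holds no split within WT, so it does not cover this feature of the data. Of the rod markers, 1 is not reported here.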

Additional observations from a re-analysis of the deposited data

Results flagged for a closer look

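In 80 groups of 4 libraries (40 chains in 2 genotypes), 6 had a library whose gap to its nearest neighbour, as a part of the group's range, exceeded Dixon's critical value for 4 samples, where chance gives about 1 in 20 groups. All 6 were in the quadruple KO. Col4a4 had 556 normalized counts in KO C, with 398 to 411 in the other 3 libraries. Col27a1 had 218 in KO C, with 240 to 244 in the others. Col20a1 had 582 in KO D, with 446 to 460 in the others, and Col18a1 had 1007 in KO D, with 769 to 799 in the others. Col6a2 had 190 in KO B, with 146 to 153 in the others. Col14a1 had 16.7 in KO A, with 11.7 to 12.3 in the others. In the WT group the split of WT B and WT C from WT A and WT D leaves no single library apart, so this measure does not mark it.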

How the results depend on the processing

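Quantile normalization, median-ratio rescaling, other filters and pseudocounts, a robust prior and a GC correction left 0 chains called. With WT A and WT D only, 1 chain was called (Col9a1) and 7 had an unadjusted p under 0.05, and with array weights 1 was called (Col9a1, log2 fold change 0.79) and 143 genes in all, while the median log2 fold change of the chains was -0.14 and 10 had an unadjusted p under 0.05. Leaving out each library in turn gave 0 to 2 chains called (2 without WT A, Col15a1 and Col4a1), 8 to 22 chains with an unadjusted p under 0.05 (8 without WT C, 9 without KO C, 22 without WT D) and 56 to 89 genes called in all. The labels do not say whether the letters A to D mark pairs or batches. Correlations of same-letter deviations were -0.01, -0.11, 0.10 and 0.05. They cannot decide this, because the split of WT B and WT C dominates the deviations within WT. With the letter as replicate block 51 genes and 0 chains were called, with 14 chains at an unadjusted p under 0.05. Of 375 values of the 20 named chains under alternatives, 2 changed sign, both against WT A and WT D only (Col2a1, 0.0066, and Col23a1, 0.076), and 4 passed the threshold of an adjusted p under 0.05. No gene of collagen making or the receptors was called under any alternative listed, which for these genes was run after the data were seen. Chains at low levels are limited by depth, most in WT B and WT C, and fold changes rest on 4 libraries per genotype. Those against WT A and WT D alone rest on 2 WT libraries, so their spread within WT is poorly known.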
